A study of Mus musculus with 190 samples.

Results

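Whole-blood transcripts were compared between NC/Nga mice with a visible dermatitis score of 3 or 4 and NC/Nga mice with a score of 2, all bled at the second of their 2 samplings. Of 190 libraries in the series, 67 met this description by their labels: 40 at score 3 or 4, of which 1 was at score 4, and 27 at score 2. Every mouse in the comparison was a male wild-type NC/Nga mouse kept in conventional housing, and the mice belonged to 9 numbered groups, called cohorts here. Cohorts 2, 4, 6 and 8 were bled on day 40 and contributed 14 libraries of score 3 or 4 and 17 of score 2. Cohorts 1, 3, 5, 7 and 9 were bled on day 44 and contributed 26 libraries of score 3 or 4 and 10 of score 2. Another 23 second-sampling libraries, 11 with a score of 1 and 12 with a score of 0 or 0.5, were used to place the difference among the lower scores. The score is a summary of visible skin lesions, and no mouse was assigned to a score, so severity is an observed property and not a treatment. The labels give no ages, and the count of days is given without its starting point.

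NC/Nga is an inbred strain that can develop itching, eczema-like skin disease in conventional housing and is used as a model of atopic dermatitis. In that disease interleukin 4 and interleukin 13 act through receptors on skin and immune cells, eosinophils respond to interleukin 5, B cells make immunoglobulin E, and neutrophils enter scratched or infected skin. Blood carries these cells between bone marrow and skin, so a change in whole-blood RNA can come from the number of cells of a type or from their content of a transcript. In these bulk samples fewer cells of a type and less RNA per cell cannot be told apart. Levels here are shares of a library's counts, so a gene's level can also fall where other transcripts rise, which was not tested.

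Levels are given as CPM, a gene's count as a share of its library's total after TMM scaling, which does not correct for gene length. Each gene was tested with edgeR's quasi-likelihood test with cohort as a covariate. Genes whose p, adjusted by the Benjamini-Hochberg method over all 18443 genes tested, lay below 0.05 are described as called, and ± gives the standard error of a log2 difference, score 3 or 4 minus score 2. Total counts ran from 23331035 to 68003482 in libraries of score 3 or 4 and from 24028800 to 56017853 in libraries of score 2. The globin share of counts had a median of 4.46% at score 3 or 4 and 6.61% at score 2, and within cohorts it was 0.591 percentage points higher at score 3 or 4, the opposite direction (two-sided permutation within cohort, p = 0.343). The mitochondrial rRNA share had a median of 7.32% at score 3 or 4 and 11.3% at score 2, and within cohorts it was 0.729 percentage points higher at score 3 or 4 (two-sided permutation within cohort, p = 0.502). Of the listed blood cell genes, all 19 B-cell, all 20 T-cell and all 20 platelet genes were tested, and 10 of 13 eosinophil genes. A mean of 1 CPM was reached by 18 B-cell genes, by 6 of the 11 dendritic cell genes tested and by none of the 11 keratinocyte and hair genes tested.

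Cohorts held unequal numbers of the 2 classes. Cohorts 1 and 3 each had a single library of score 2, and cohort 8 had a single library of score 3 beside 8 of score 2. Cohorts 1 to 4 held 24 libraries of score 3 or 4 and 9 of score 2, and cohorts 6 to 9 held 13 and 16. Medians, ranges and counts of libraries above or below a score 2 value pool all cohorts. They are not adjusted for cohort, as the log2 differences are, and can show a larger or smaller contrast. One library stood apart: number 8 of cohort 2, with a score of 3, was the highest of all 67 libraries for 56 of the 66 named genes called higher. It had 31235911 counts, a globin share of 2.04% and a mitochondrial rRNA share of 4.25%. Without it 63 of the 66 genes were still called, and no log2 difference among the 66 was over 1.31 times as large with it as without it. The 66 come from the set of named genes described with the processing. Many list members given below by name only, such as Cd177 and Tlr4, and also Hif1a and Il1b, are not among them.

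At score 3 or 4 mature neutrophil genes and many genes of innate sensing and glycolysis were higher, and 10 of 19 B-cell genes and 5 of 10 MHC class II genes were lower. Of the genes tested 1125 were called, 6.10% of all. They divided into 850 called higher (4.61%) and 275 called lower (1.49%), and the median log2 difference over all genes was -0.06. Without the library that stood apart, 771 genes were called higher and 227 lower. The rises were larger than the falls: among called genes with a mean of at least 1 CPM, 47 rose by at least 2-fold and 1 fell by at least 2-fold. The median log2 difference was 0.51 for genes called higher and -0.33 for genes called lower. Of the genes called higher 846 had the same sign in at least 6 of the 9 cohorts, and 36 had it in all 9. Of the genes called lower 265 had the same sign in at least 6 cohorts, and 39 had it in all 9. These signs were read from the libraries that gave the calls, so they are not independent of them. The share over all genes tested was not counted. Cohort 8, with its single library of score 3, went against the other cohorts in 63 of the 66 named genes called higher.

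The neutrophil genes formed the largest block. Neutrophils are the granulocytes that arrive first at inflamed tissue, and their mature form carries granule proteins, chemoattractant receptors and the calcium-binding S100 proteins. Of the 24 genes listed as mature neutrophil genes 23 were tested, and all 23 rose, against 4.61% called higher over all genes, with a median log2 difference of 0.97 against -0.06 over all genes. The list's summed level ran from 2853 to 24472 CPM with a median of 6598 CPM at score 3 or 4, and from 1568 to 9964 CPM with a median of 3676 CPM at score 2. The ranges of the classes overlapped. This list, like the other lists here, was chosen with earlier results of these data known, so its share is not independent support. Without the library that stood apart 22 of the 23 genes were still called.

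Mmp8 (chromosome 9, 7558457 to 7568486, plus strand, GRCm39) encodes neutrophil collagenase, which is stored in granules and cuts fibrillar collagen. It ranged from 47.8 to 931 CPM with a median of 142.5 CPM at score 3 or 4, and from 22.9 to 271 CPM with a median of 57.7 CPM at score 2. Of the 40 libraries of score 3 or 4, 38 lay above the score 2 median and 6 above every library of score 2. The log2 difference was 1.59 ± 0.28 (adjusted p = 0.000394). Without the library that stood apart it was 1.46 (adjusted p = 0.000354). Within cohorts the difference in mean log2(CPM + 1) was positive in 8 cohorts, from 1.10 in cohort 4 to 2.40 in cohort 6, and was -0.85 in cohort 8.

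**Figure D1:**
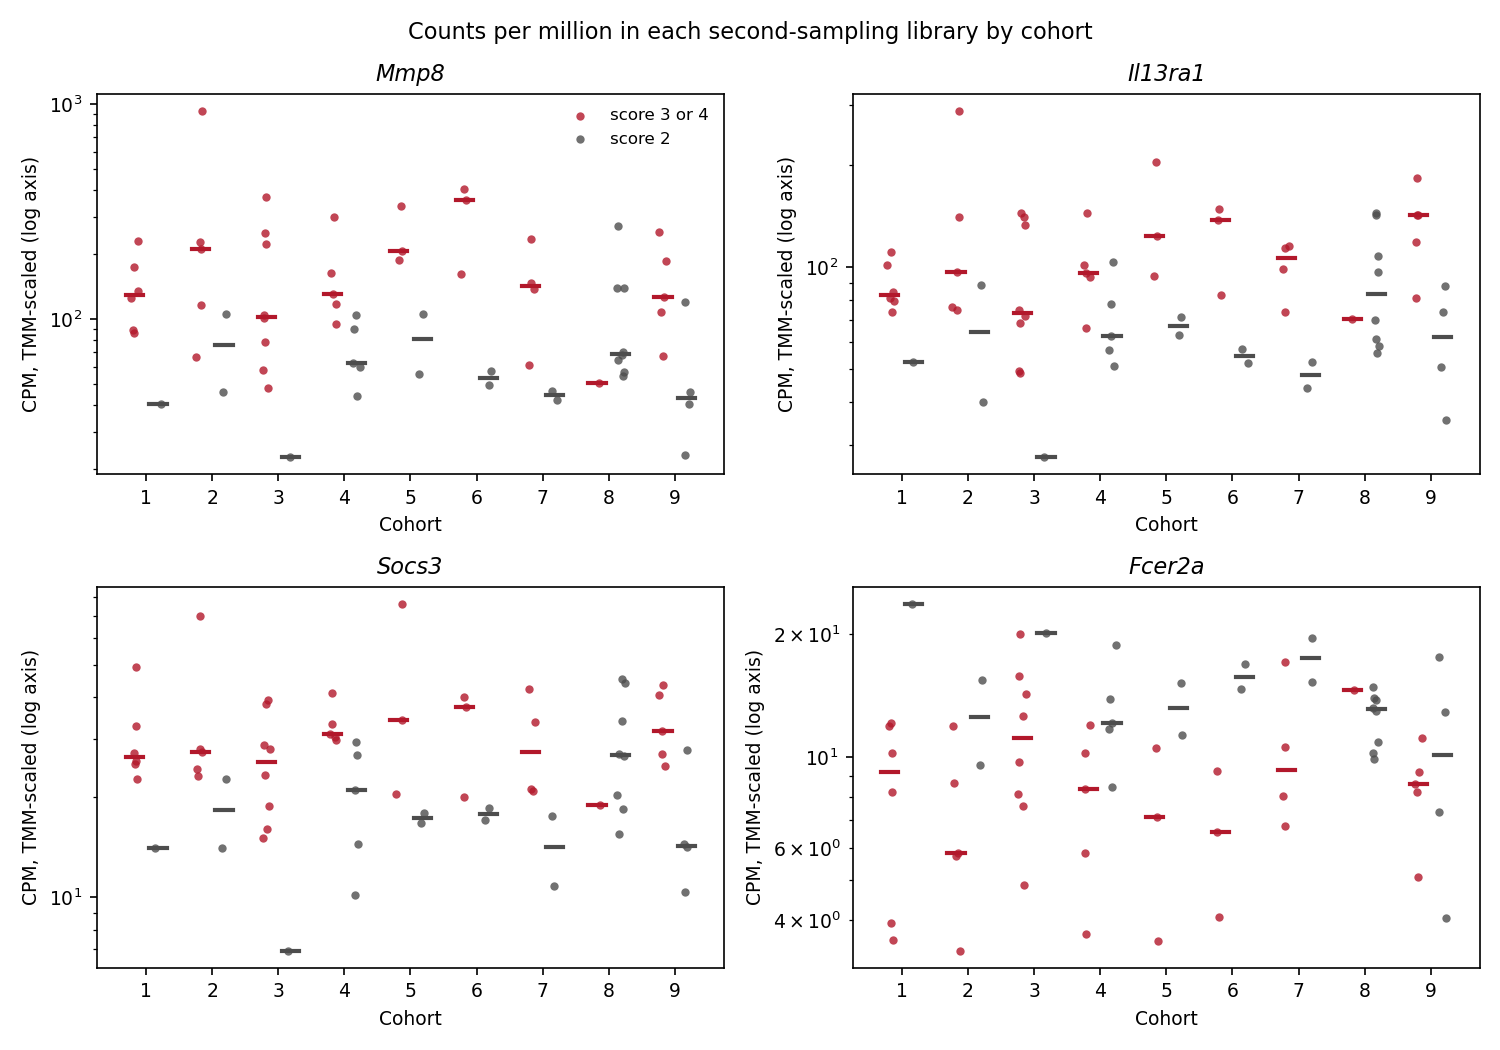
CPM on a log axis in each of the 67 libraries for Mmp8, Il13ra1, Socs3 and Fcer2a, with score 3 or 4 in red to the left of score 2 in grey within each cohort; bars are medians. For Mmp8 the red median lies above the grey one in 8 of 9 cohorts, with cohort 8 as the exception, and the classes overlap in single libraries.

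Ly6g (chromosome 15, 75027089 to 75030975, plus strand) encodes the surface protein that defines mouse neutrophils. Its level ran from 1.70 to 65.7 CPM with a median of 9.04 CPM at score 3 or 4, and from 0.742 to 15.01 CPM with a median of 2.69 CPM at score 2, a log2 difference of 1.80 ± 0.32 (adjusted p = 0.000394). Ly6g belongs to a family of near-identical neighbours, so reads may be shared between them. S100a8, with its partner S100a9 among the most abundant proteins of neutrophil cytoplasm, ran from 642 to 8629 CPM with a median of 1936 CPM at score 3 or 4, and from 315 to 3049 CPM with a median of 873 CPM at score 2. S100a8 was therefore high in both classes and higher at score 3 or 4, with a log2 difference of 1.21 ± 0.22 (adjusted p = 0.0004) and of 1.11 without the library that stood apart, and S100a9 differed by 1.02 ± 0.19 (adjusted p = 0.000468). Wfdc21, a secreted protein with a whey acidic protein domain, had medians of 60.8 CPM at score 3 or 4 and 30.2 CPM at score 2 and differed by 1.32 ± 0.22 (adjusted p = 0.000348). For Wfdc21, 15 of the 40 libraries of score 3 or 4 lay above every library of score 2. Retnlg, a resistin-like protein of mouse granulocytes, differed by 1.22 ± 0.22 and Lcn2, the iron-siderophore binding lipocalin, by 1.16 ± 0.20. S100a8, S100a9, Retnlg and Lcn2 were picked for description after their values had been seen.

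The granule genes are described by the stage at which neutrophils make them. Primary granules are filled at the promyelocyte stage in the bone marrow, secondary and gelatinase granules later. Of the 12 secondary and gelatinase granule genes 7 rose, against 4.61% over all genes, with a median log2 difference of 0.63; they were Mmp8, Ngp, Lcn2, Cd177, Chil3, Mmp9 and Itgam. Ngp, a granule protein of late marrow precursors, had medians of 2.01 CPM at score 3 or 4 and 1.03 CPM at score 2 and differed by 1.20 ± 0.21 (adjusted p = 0.000394). None of the 7 primary granule genes tested reached a mean of 1 CPM, their median log2 difference was 0.33, and their summed level had medians of 1.12 CPM at score 3 or 4 and 1.07 CPM at score 2. The granule lists were not tested against each other. Of these only Ms4a3, a marker of granulocyte and monocyte progenitors, was called, from medians of 0.0355 CPM at score 3 or 4 and 0 CPM at score 2, and it stayed past the threshold in 40 of the 67 fits that each left out 1 library. Mpo, the myeloperoxidase of primary granules, differed by 0.41 ± 0.53 (adjusted p = 0.73), and was picked after its values had been seen.

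The stefin A genes, a mouse cluster of inhibitors of cysteine proteases found in neutrophils, were mostly called higher. Of the 9 listed 6 were tested and 5 rose, against 4.61% called higher over all genes, with a median log2 difference of 1.89. Stfa2l1 was the most abundant, with medians of 25.2 CPM at score 3 or 4 and 12.8 CPM at score 2 and a log2 difference of 1.09 ± 0.20 (adjusted p = 0.000445). Stfa1 differed by 1.52 ± 0.29 (adjusted p = 0.000463). Stfa2, Stfa3 and Csta2 had medians under 1 CPM in both classes, and the call of Csta2 held in 42 of the 67 fits that each left out 1 library. These genes are near-identical copies, so how their reads were divided is uncertain. Cstdc5, a related cystatin-domain gene, was among the 10 largest rises at 1.68 ± 0.31 (adjusted p = 0.000444).

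The 10 largest rises among called genes of at least 1 CPM were Saa3, Lipg, B230303A05Rik, Prok2, Gm29264, Ly6g, Kcnn3, Cstdc5, Mmp8 and Crispld2, each positive in 8 of 9 cohorts. Saa3 (chromosome 7, 46361422 to 46365124, minus strand), an acute-phase serum amyloid A made outside the liver by macrophages and other cells, ran from 0.0716 to 75.8 CPM with a median of 1.77 CPM at score 3 or 4, and from 0 to 1.505 CPM with a median of 0.339 CPM at score 2. Of the 40 libraries of score 3 or 4, 24 lay above every library of score 2. The log2 difference was 3.32 ± 0.54 (adjusted p = 0.000348). The value of 75.8 CPM came from the library that stood apart, the next being 8.95 CPM; without it the log2 difference was 2.92 (adjusted p = 0.000149). Lipg, endothelial lipase, was at most 77.4 CPM at score 3 or 4 with a median of 2.20 CPM, and at most 3.23 CPM at score 2 with a median of 0.262 CPM. Its highest value came from the same library, the next being 9.19 CPM, and its log2 difference was 3.13 ± 0.63 with it and 2.61 without it (adjusted p = 0.00223). Prok2 encodes prokineticin 2, a secreted peptide that neutrophils make, and differed by 2.02 ± 0.41 (adjusted p = 0.000895). Kcnn3, a calcium-activated potassium channel, had medians of 2.29 CPM at score 3 or 4 and 0.696 CPM at score 2 and differed by 1.77 ± 0.33 (adjusted p = 0.000444). Crispld2, a secreted protein that binds bacterial lipopolysaccharide, differed by 1.56 ± 0.29 (adjusted p = 0.000444). B230303A05Rik and Gm29264 differed by 2.06 ± 0.38 and 1.86 ± 0.35. Kcnn3 and these unnamed transcripts each had more than 30 of 40 libraries of score 3 or 4 above the score 2 median.

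**Figure D2:**
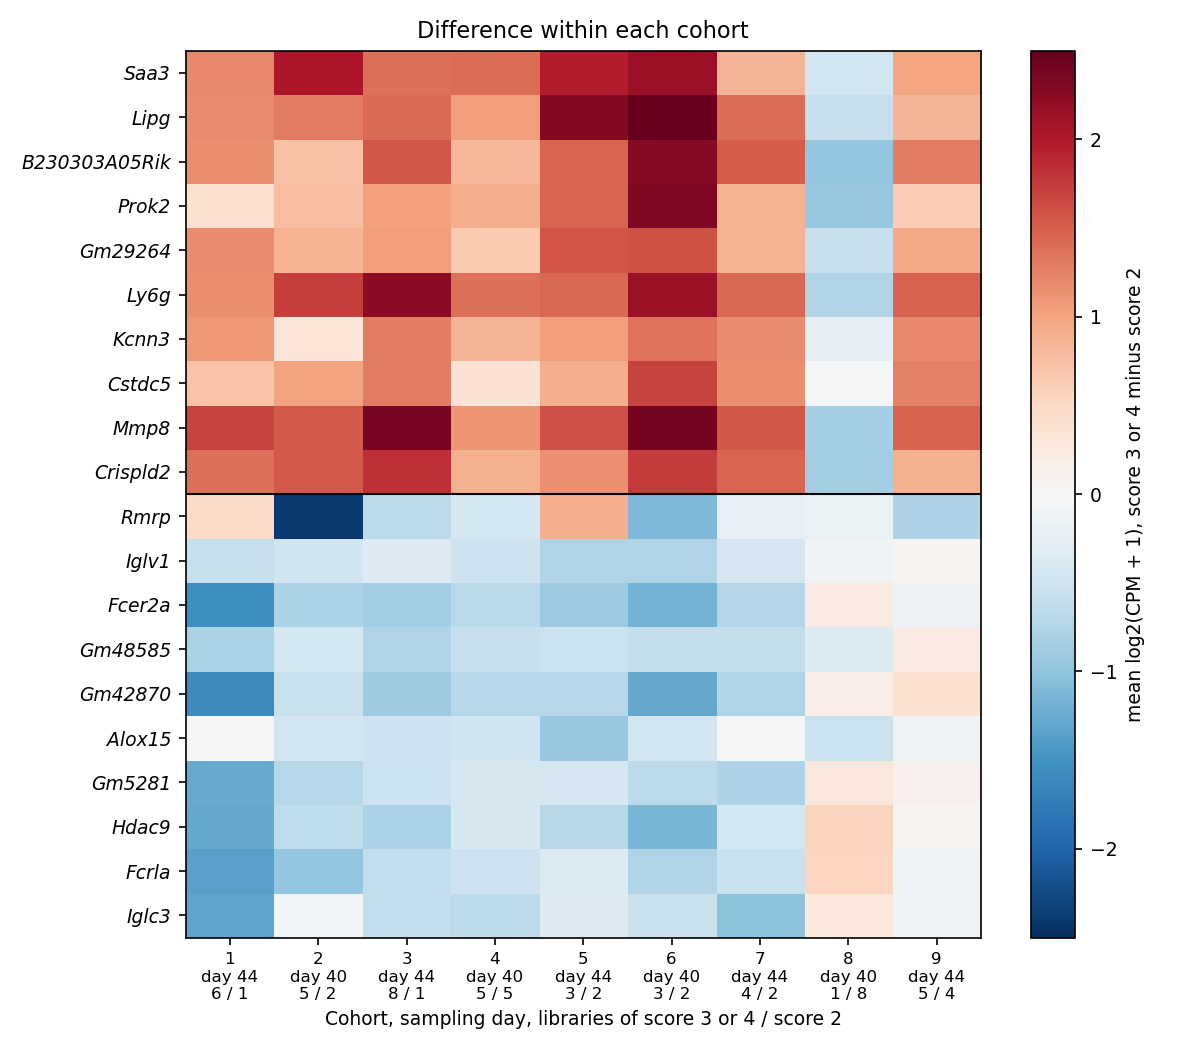
Difference in mean log2(CPM + 1), score 3 or 4 minus score 2, within each cohort (columns, with the sampling day and the number of libraries of score 3 or 4 / score 2) for the 10 largest rises (above the line) and the 10 largest falls (below it). Red is higher and blue lower at score 3 or 4. The rises are positive in every cohort but cohort 8, where 1 library stands for the higher score. Of the falls Alox15 is negative in 9 cohorts and the others in 7 or 8. Their exceptions lie in cohort 8, cohort 9 or both, and for Rmrp in cohorts 1 and 5.

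Receptors for bacterial products and chemoattractants were called in part, with no member called lower. Of 14 complement and formyl peptide receptor genes 7 rose (median log2 difference 0.41), against 4.61% over all genes. Fpr2, a receptor for formylated peptides and for serum amyloid A, had medians of 32.3 CPM at score 3 or 4 and 18.1 CPM at score 2 and differed by 1.02 ± 0.19 (adjusted p = 0.000444). Fpr1, the closely related formyl peptide receptor, differed by 1.00 ± 0.19 (adjusted p = 0.000567). The others were Cfp, Fcgr3, C5ar1, Fcgr4 and Itgam. Of 18 Toll-like receptor and pattern recognition genes 9 rose (median 0.46): Tlr2, Cd14, Tlr4, Tlr13, Tlr8, Tlr6, Tlr5, Myd88 and Clec7a. Tlr2, which senses bacterial lipoproteins, ran from 20.4 to 115.7 CPM with a median of 38.4 CPM at score 3 or 4, and from 11.2 to 66.8 CPM with a median of 24.1 CPM at score 2, so the classes overlapped widely. Its log2 difference was 0.80 ± 0.16 (adjusted p = 0.000575). Clec4e, the receptor Mincle for mycobacterial and fungal glycolipids, differed by 0.91 ± 0.16 (adjusted p = 0.000394) and was picked after its values had been seen.

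Of the 17 interleukin 1 and inflammasome genes 8 rose (median 0.33), against 4.61% called higher over all genes. They comprised the cytokine genes Il1b and Il36g, the receptor chains Il1rap and Il18rap, the caspases Casp1 and Casp4, and 2 brakes on interleukin 1, the decoy receptor Il1r2 and the receptor antagonist Il1rn. Il1r2 had medians of 11.3 CPM at score 3 or 4 and 5.94 CPM at score 2 and differed by 1.29 ± 0.24 (adjusted p = 0.000549), the largest difference in the list, and by 1.17 without the library that stood apart. Il1b, the cytokine itself, had medians of 206.3 CPM at score 3 or 4 and 179.4 CPM at score 2 and differed by 0.47 ± 0.13 (adjusted p = 0.016), and was picked after its values had been seen. Without the library of score 2 numbered 3 in cohort 3, the only one of its score there, 5 of these genes were called. Acod1, which makes the metabolite itaconate in activated myeloid cells, differed by 1.22 ± 0.24 (adjusted p = 0.000579), and by 1.07 without number 8 of cohort 2. Nos2, the inducible nitric oxide synthase, had medians of 1.08 CPM at score 3 or 4 and 0.131 CPM at score 2 and differed by 2.92 ± 0.52 (adjusted p = 0.000394). It was picked for description after its values had been seen. Nos2 was among the 5 respiratory burst genes of 10 that rose, along with Ncf4, Cyba and Rac2, subunits and partners of the phagocyte oxidase whose differences lay between 0.31 and 0.46. Of those 5 genes 3 were called when any of 8 single libraries was left out.

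Of 20 glycolysis and hypoxia genes tested 12 rose by small amounts and none fell, against 4.61% called higher over all genes, with a median log2 difference of 0.32. Pkm, the pyruvate kinase that closes glycolysis, ran from 56.2 to 165.65 CPM with a median of 88.2 CPM at score 3 or 4, and from 46.8 to 118.4 CPM with a median of 61.3 CPM at score 2. All but 1 of the 40 libraries of score 3 or 4 lay above the score 2 median of Pkm, and the log2 difference was 0.54 ± 0.10 (adjusted p = 0.000394). Slc16a3, which exports lactate, differed by 0.75 ± 0.15 (adjusted p = 0.000752). Hif1a, the oxygen-regulated transcription factor, differed by 0.41 ± 0.09 (adjusted p = 0.00252), and was picked after its values had been seen. The other 9 were Slc2a1, Slc2a3, Hk3, Pfkfb3, Pfkfb4, Pgk1, Eno1, Ldha and Egln3.

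Cytokine receptors tied to allergic disease moved in both directions. Il13ra1, the interleukin 13 receptor chain that pairs with the interleukin 4 receptor, lies on chromosome X at 35375763 to 35434912. Il13ra1 ran from 48.95 to 288 CPM with a median of 97.9 CPM at score 3 or 4, and from 27.6 to 143.8 CPM with a median of 61.4 CPM at score 2. Of the 40 libraries of score 3 or 4, 38 lay above the score 2 median of Il13ra1. Its log2 difference was 0.91 ± 0.15 (adjusted p = 0.000348), among the smallest adjusted p-values of any gene named here, and 0.85 without the library that stood apart. Il4ra, the shared chain of the interleukin 4 and interleukin 13 receptors, had medians of 58.8 CPM at score 3 or 4 and 46.1 CPM at score 2 and differed by 0.59 ± 0.13 (adjusted p = 0.0015). Il1rap and Il17ra, receptor chains for interleukin 1 family cytokines and for interleukin 17, differed by 0.87 ± 0.17 and 0.31 ± 0.09. In contrast Il5ra, the eosinophil receptor for interleukin 5, had medians of 1.59 CPM at score 3 or 4 and 2.38 CPM at score 2 and fell by 0.53 on the log2 scale (SE 0.17, adjusted p = 0.038). Of the 15 itch and atopic dermatitis receptor genes tested these 4 rose and this 1 fell, against 4.61% called higher and 1.49% called lower over all genes, with a median of 0.01. Of the 11 T helper 2 and homing genes tested Il4ra and Selplg, the ligand for P-selectin, rose, against the same 4.61%, and 9 were not called.

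The eosinophil genes had a median log2 difference of -0.47, against -0.06 over all genes, with 2 of 10 called lower (1.49% over all genes) and 1 called higher. Alox15, the 15-lipoxygenase of eosinophils and some macrophages, ran from 0.254 to 3.59 CPM with a median of 1.16 CPM at score 3 or 4, and from 0.636 to 4.85 CPM with a median of 2.19 CPM at score 2. Its level lay below the score 2 median, pooled over cohorts, in 35 of 40 libraries, and its difference was negative in all 9 cohorts. It fell by 0.57 on the log2 scale (SE 0.18, adjusted p = 0.0485), a call that held in 20 of the 67 fits that each left out 1 library; that of Il5ra held in 54. Ccr3, the eotaxin receptor, had medians of 6.32 CPM at score 3 or 4 and 11.3 CPM at score 2, with a log2 difference of -0.41 ± 0.19 that missed the threshold (adjusted p = 0.235). Siglece, which neutrophils and macrophages also carry, was the one that rose, by 0.55 ± 0.13 (adjusted p = 0.00487). Hdc, the enzyme that makes histamine and that the mature neutrophil list holds as well, had medians of 81.1 CPM at score 3 or 4 and 50.6 CPM at score 2 and differed by 0.91 ± 0.18 (adjusted p = 0.000575). The other 9 basophil and mast cell genes were not called, and their log2 differences lay between -0.45 and -0.04. Of 16 leukotriene and prostaglandin genes tested 3 rose (4.61% over all genes), 1 fell and 12 were not called, with a median of 0.09. Alox5ap and Alox5, which together start leukotriene synthesis, and Ltb4r1, the receptor for leukotriene B4, rose while Alox15 fell. Alox5ap had medians of 132.4 CPM at score 3 or 4 and 85.3 CPM at score 2, with 20 of 40 libraries of score 3 or 4 above every library of score 2, and differed by 0.62 ± 0.12 (adjusted p = 0.000575).

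Of the 19 listed B-cell genes 10 fell, each by a small amount, and 9 did not pass the test. All 19 had negative log2 differences, from -0.71 to -0.37, with a median of -0.45, against 1.49% called lower and a median of -0.06 over all genes. The called genes included Fcer2a, Blk, Ighm, Fcmr, Cxcr5, Tnfrsf13c, Cd79b, Cd72 and Pax5. The list's summed level ran from 221 to 799 CPM with a median of 436 CPM at score 3 or 4, and from 254 to 1015 CPM with a median of 552 CPM at score 2, so the classes overlapped over most of their range. Fcer2a (chromosome 8, 3731737 to 3744175, minus strand) encodes CD23, the low-affinity receptor for immunoglobulin E on mature B cells. Fcer2a ran from 3.37 to 19.98 CPM with a median of 8.46 CPM at score 3 or 4, and from 4.04 to 23.6 CPM with a median of 13.8 CPM at score 2. Of the 40 libraries of score 3 or 4, 35 lay below the score 2 median. Fcer2a fell by 0.71 on the log2 scale (SE 0.15, adjusted p = 0.00155). Blk, a kinase of B-cell receptor signalling, fell by 0.53 (SE 0.13, adjusted p = 0.00466). Within cohorts the difference in mean log2(CPM + 1) of Fcer2a ran from -1.52 in cohort 1 to 0.22 in cohort 8. That of Blk ran from -1.28 in cohort 1 to 0.05 in cohort 9, and each was negative in 8 cohorts.

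The number of B-cell genes called rested on single libraries. Leaving out the only score 2 library of cohort 1, number 2, gave 3 called genes. Leaving out a score 2 library of cohort 9, number 10, gave 17. Number 3 of cohort 3, number 9 of cohort 4, number 1 of cohort 7 and number 6 of cohort 9 each brought the count to 5 or 6 when left out, and number 5 of cohort 8 and number 7 of cohort 9 each brought it to 16. Fcer2a and Blk stayed past the threshold in all 67 such fits.

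The genes of MHC class II, which B cells and other antigen-presenting cells use to show peptides to helper T cells, were called in part. Of 10 genes 5 fell, against 1.49% over all genes, H2-Ob, H2-DMb2, H2-Eb1, H2-Aa and H2-DMb1, with a median of -0.38 over the list. H2-Ob, a B-cell modulator of peptide loading, had medians of 19.3 CPM at score 3 or 4 and 25.9 CPM at score 2 and fell by 0.45 (SE 0.12, adjusted p = 0.00933). Within cohorts its difference in mean log2(CPM + 1) ran from -1.39 in cohort 1 to 0.24 in cohort 8, and was 0.05 in cohort 9. None of the 5 calls held without library 2 of cohort 1, when H2-Ob had an adjusted p of 0.0566; 3 held without number 3 of cohort 3, number 9 of cohort 4 or number 1 of cohort 7, and 8 genes were called without number 10 of cohort 9. None of the 11 MHC class I presentation genes was called (median 0.04). Of the 14 plasma cell and immunoglobulin constant genes 1 was called, a share near the 4.61% called higher over all genes: Xbp1, a transcription factor of secretory cells, which rose by 0.40 ± 0.12 (adjusted p = 0.0234). Among the 10 largest falls were 2 genes of the lambda light chain, Iglv1 and Iglc3, which have similar copies. Iglv1 had medians of 0.742 CPM at score 3 or 4 and 1.45 CPM at score 2, lay below the score 2 median in 37 of 40 libraries, and fell by 0.79 (SE 0.18, adjusted p = 0.00298). Iglc3 fell by 0.54 (SE 0.15, adjusted p = 0.0133).

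The rest of the 10 largest falls were Rmrp, Fcer2a, Gm48585, Gm42870, Alox15, Gm5281, Hdac9 and Fcrla. Rmrp, the RNA of a ribonuclease that processes ribosomal RNA, had the largest fall at 1.06 on the log2 scale (SE 0.34, adjusted p = 0.0497) but a call that held in 17 of the 67 fits that each left out 1 library. Without number 2 of cohort 2, a score 2 library, Rmrp differed by -0.54 (adjusted p = 0.339), a smaller fall than that of Iglv1. Its values ran from 0.544 to 89.8 CPM at score 3 or 4 and from 3.27 to 173.25 CPM at score 2. Fcrla, a B-cell protein related to Fc receptors, fell by 0.54 (SE 0.14, adjusted p = 0.00851). Hdac9, a histone deacetylase, fell by 0.54 (SE 0.15, adjusted p = 0.02).

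Among the other cell types, several lists gave no calls and others gave a few. None of 20 T-cell genes was called, with a median log2 difference of -0.16, and none of the 9 regulatory T-cell genes tested. Cd4 had medians of 11.2 CPM at score 3 or 4 and 12.5 CPM at score 2, a log2 difference of -0.18 ± 0.08 (adjusted p = 0.195). Of 14 NK and cytotoxic genes 1 was called, against 1.49% called lower over all genes: Klre1, a receptor of NK cells, fell by 0.46 (SE 0.14, adjusted p = 0.0286). Dendritic cell genes (11 tested) and nonclassical monocyte genes (11 tested) had none called. Of 12 classical monocyte genes 6 rose, against 4.61% called higher over all genes, with a median of 0.28, and they included Cd14, F13a1, Vcan, Lyz2 and Csf1r. F13a1, a coagulation factor chain of monocytes and platelets, exceeded every library of score 2 in 21 of 40 libraries of score 3 or 4, and differed by 0.41 ± 0.10 (adjusted p = 0.00455). Of 20 platelet genes 1 rose, Selp, a share near the 4.61% of all genes. Of 27 erythroid, 34 cytosolic ribosomal protein, 20 mitosis and 18 collagen, matrix and muscle genes tested none was called. The collagen, matrix and muscle list summed to a median of 12.2 CPM at score 3 or 4 and 14.5 CPM at score 2, and the keratinocyte and hair list to a median of 0.648 CPM at score 3 or 4 and 0.723 CPM at score 2. The one call in the keratinocyte and hair list was Flg, filaggrin of the outer skin, listed at a median of 0 in both classes and at no more than 0.119 CPM at score 3 or 4 and 1.07 CPM at score 2.

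**Figure D3:**
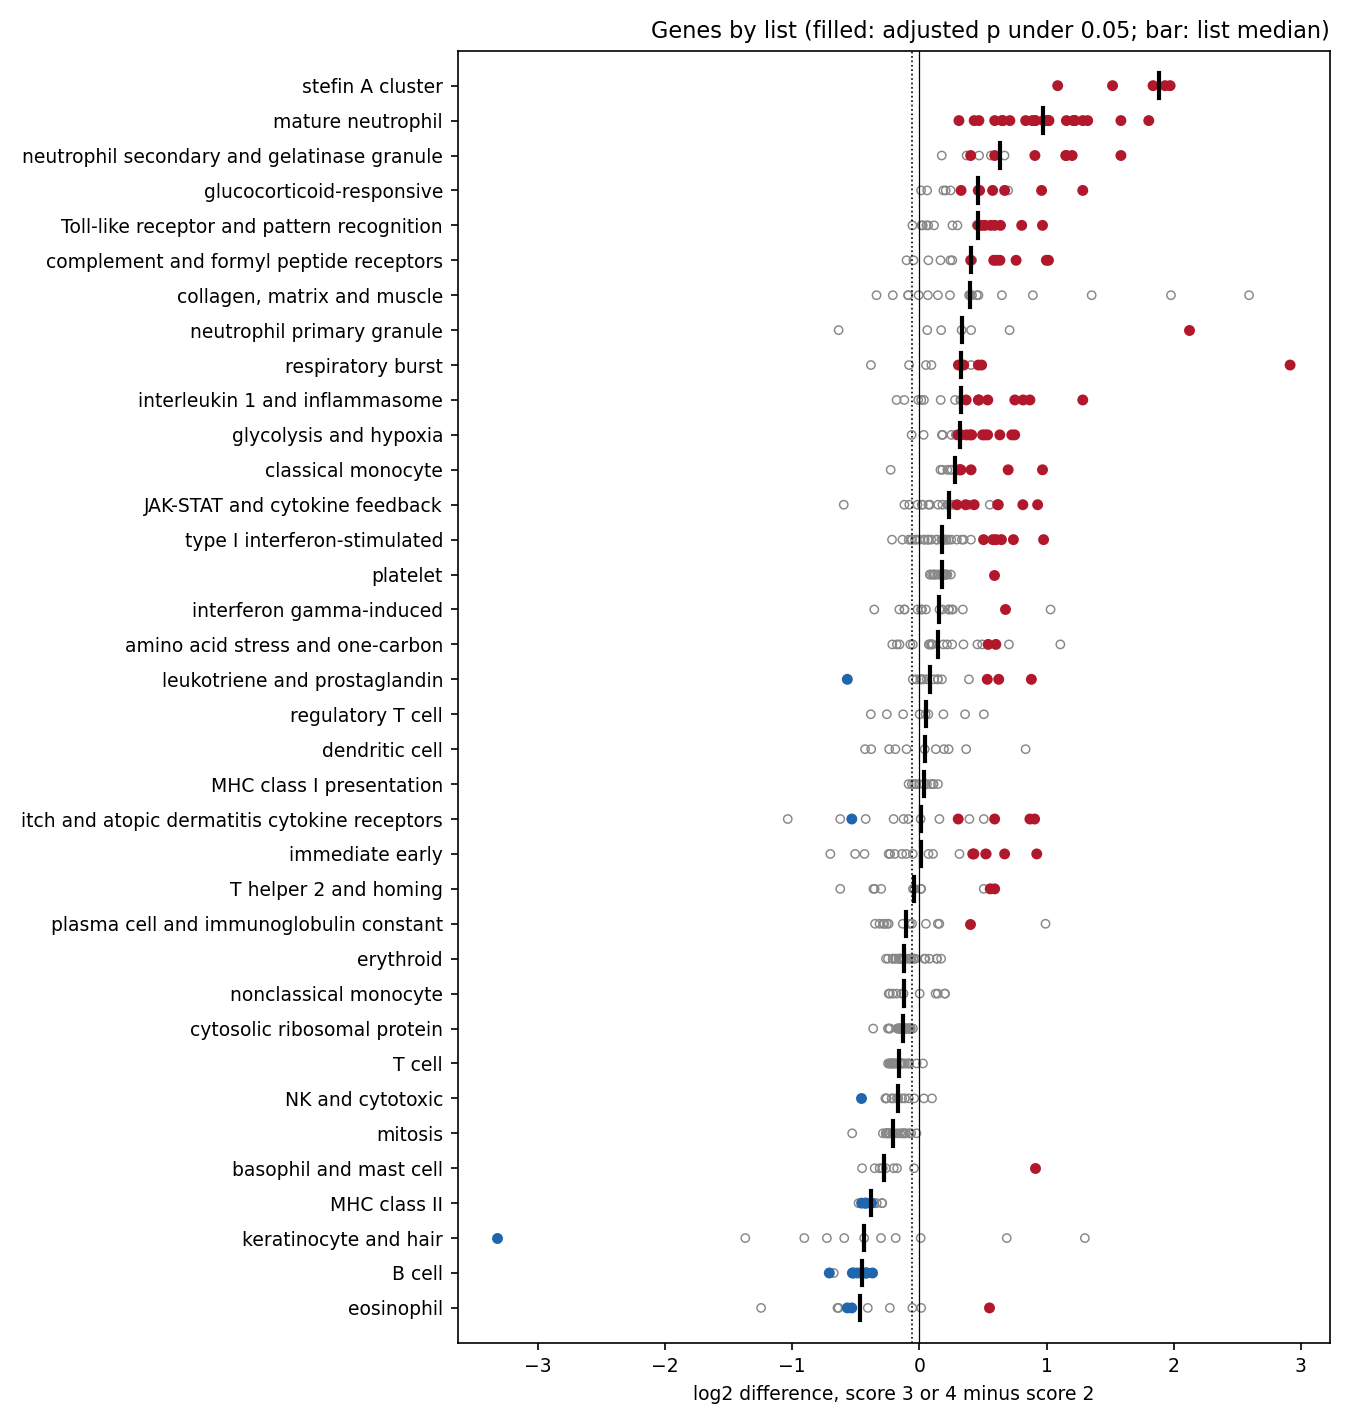
log2 difference, score 3 or 4 minus score 2, of each tested gene in the lists with at least 5 tested genes, ordered by list median (black bars). Filled points passed the test, red higher and blue lower; open points did not. The dotted line is the median of all genes, -0.06. Every tested mature neutrophil gene is filled on the right, and every B-cell gene lies on the left.

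Signalling genes below cytokine receptors were called in part. Of 23 JAK-STAT and cytokine feedback genes 7 rose and none fell (median 0.23), against 4.61% called higher over all genes. They comprised the transcription factor Stat3, its feedback inhibitor Socs3, the cytokine Osm and the interleukin 6 receptor gene Il6ra. The others were the granulocyte colony-stimulating factor receptor gene Csf3r and the related receptor chains Csf2rb and Csf2rb2. Csf2rb serves interleukin 3, interleukin 5 and GM-CSF. Socs3 (chromosome 11, 117856905 to 117860873, minus strand) ran from 15.1 to 75.9 CPM with a median of 28.3 CPM at score 3 or 4, and from 6.93 to 45.3 CPM with a median of 17.9 CPM at score 2. Of the 40 libraries of score 3 or 4, 38 lay above the score 2 median of Socs3, and it differed by 0.93 ± 0.16 (adjusted p = 0.000394). Steap4, a metalloreductase of neutrophils and fat that inflammatory cytokines induce, had medians of 112.4 CPM at score 3 or 4 and 69.8 CPM at score 2 and differed by 0.97 ± 0.18 (adjusted p = 0.000435).

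The sequences just upstream of Steap4 and Socs3 are shown because both genes rose and both hold the letters TTCNNNGAA, the spacing that STAT proteins prefer, marked in capitals. The windows are the 250 bases before the RefSeq start on the gene's strand in build GRCm38.p6, chr5:7960222-7960471 on the plus strand for Steap4 and chr11:117969367-117969616 on the minus strand for Socs3. The motif reads the same on both strands.
Steap4: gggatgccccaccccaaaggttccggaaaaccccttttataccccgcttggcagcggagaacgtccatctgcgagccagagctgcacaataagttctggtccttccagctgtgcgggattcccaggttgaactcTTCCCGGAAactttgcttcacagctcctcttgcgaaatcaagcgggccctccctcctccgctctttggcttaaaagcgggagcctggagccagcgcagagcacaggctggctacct
Socs3: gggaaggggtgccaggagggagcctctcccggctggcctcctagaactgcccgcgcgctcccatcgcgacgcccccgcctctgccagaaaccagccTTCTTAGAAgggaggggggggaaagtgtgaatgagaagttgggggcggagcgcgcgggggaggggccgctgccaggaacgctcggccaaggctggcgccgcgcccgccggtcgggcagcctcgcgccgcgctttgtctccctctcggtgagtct
The match lay farther from the start in Socs3 than in Steap4. Over all 32851 such windows 7.02% held it, as did 6.16% of the windows of genes tested and 7.42% of the 809 windows of genes called higher. The stricter TTCCNGGAA, which is contained in the first motif and which Steap4 holds, was in 0.913% of all windows, 1.03% of the windows of genes tested and 1.11% of the windows of genes called higher. For either motif the share among genes called higher lay near that of all windows.

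Other stimulus-responsive lists were called in part as well. Of 34 type I interferon-stimulated genes tested 6 rose (median 0.18), against 4.61% called higher over all genes: Oasl2, Oas2, Oas1a, Oas1g, Rtp4 and Trim30a, and the Oas1 copies may share reads. Oasl2, related to the enzymes that sense double-stranded RNA, had medians of 51.96 CPM at score 3 or 4 and 35.2 CPM at score 2 and differed by 0.74 ± 0.14 (adjusted p = 0.000579), and by 0.66 without the library that stood apart. Of 17 interferon gamma-induced genes tested Gbp2 alone rose, a share near the 4.61% of all genes, by 0.67 ± 0.19 (adjusted p = 0.0182). Gbp2, a guanylate-binding protein, reached 410 CPM in the library that stood apart and at most 64.3 CPM in any other, and its log2 difference was 0.51 without that library (adjusted p = 0.00122). Of 13 glucocorticoid-responsive genes tested 7 rose (median 0.46), against 4.61% over all genes: Il1r2, Sgk1, Dusp1, Tsc22d3, Fkbp5, Klf9 and Cd163. Sgk1, a kinase induced by steroids and by other stress, differed by 0.58 ± 0.11 (adjusted p = 0.000633). Of 18 immediate early genes 5 rose, against 4.61% over all genes, Ier3, Dusp1, Fos, Jun and Ier2, with a list median of 0.01. Of 20 amino acid stress and one-carbon genes tested Sesn2 and Cebpb rose and 18 were not called (median 0.15), against 4.61% called higher over all genes. Kit, the stem cell factor receptor of mast cells and progenitors, had medians of 5.15 CPM at score 3 or 4 and 2.41 CPM at score 2, exceeded every library of score 2 in 15 of 40 libraries, and differed by 1.31 ± 0.25 (adjusted p = 0.000454). Dgat2, which makes triglycerides for lipid droplets, differed by 1.28 ± 0.21 (adjusted p = 0.000348). Kit and Dgat2 were picked after their values had been seen.

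Most calls among the score classes fell at the top step. In a fit of all 90 second-sampling libraries in 4 score classes, 1135 genes (6.15%) were called between score 3 or 4 and score 2, 758 higher (4.11%) and 377 lower (2.04%), and 3711 had an unadjusted p below 0.05. Between score 2 and score 1 edgeR called 4 genes (0.0217%), while 3249 had an unadjusted p below 0.05. They were Shisal2b, the 1 gene higher at score 2 (0.00542%), and Exosc6, Aldh1l2 and Lrrc70, which were lower; Lrrc70, annotated as a pseudogene, alone had a mean above 1 CPM, and it fell by 0.81 (SE 0.16, adjusted p = 0.0263). Between score 1 and score 0 or 0.5 edgeR called 0 genes and 639 had an unadjusted p below 0.05. Some lists had larger medians at the lower step: the erythroid median was 0.86 for score 2 minus score 1 and -0.05 for score 3 or 4 minus score 2, and the mitosis median was 0.54 and -0.16 for these steps, with no member called at the top step. The steps share the score 2 libraries or the score 1 libraries, and classes of 12 and 11 libraries give less precision than classes of 40 and 27. The median CPM of Mmp8 was 58.6 at score 0 or 0.5, 76.1 at score 1, 61.8 at score 2 and 155.5 at score 3 or 4. The steps of Mmp8 on the log2 scale were -0.28 ± 0.46, 0.11 ± 0.42 and 1.56 ± 0.32. Over the mature neutrophil genes the median steps were -0.00, 0.02 and 0.95. The median CPM of Fcer2a was 17.3 at score 0 or 0.5, 12.7 at score 1, 14.7 at score 2 and 9.11 at score 3 or 4. No gene passed the test that the highest step differed from the one below it: neither edgeR nor DESeq2 called any gene (0 each), and by edgeR 2734 had an unadjusted p below 0.05. For Mmp8 the difference of these steps was 1.45 ± 0.64 (unadjusted p = 0.0272, adjusted p = 0.291). The step at the top was therefore the one at which many genes were called, but for no single gene was it shown to exceed the step below.

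**Figure D4:**
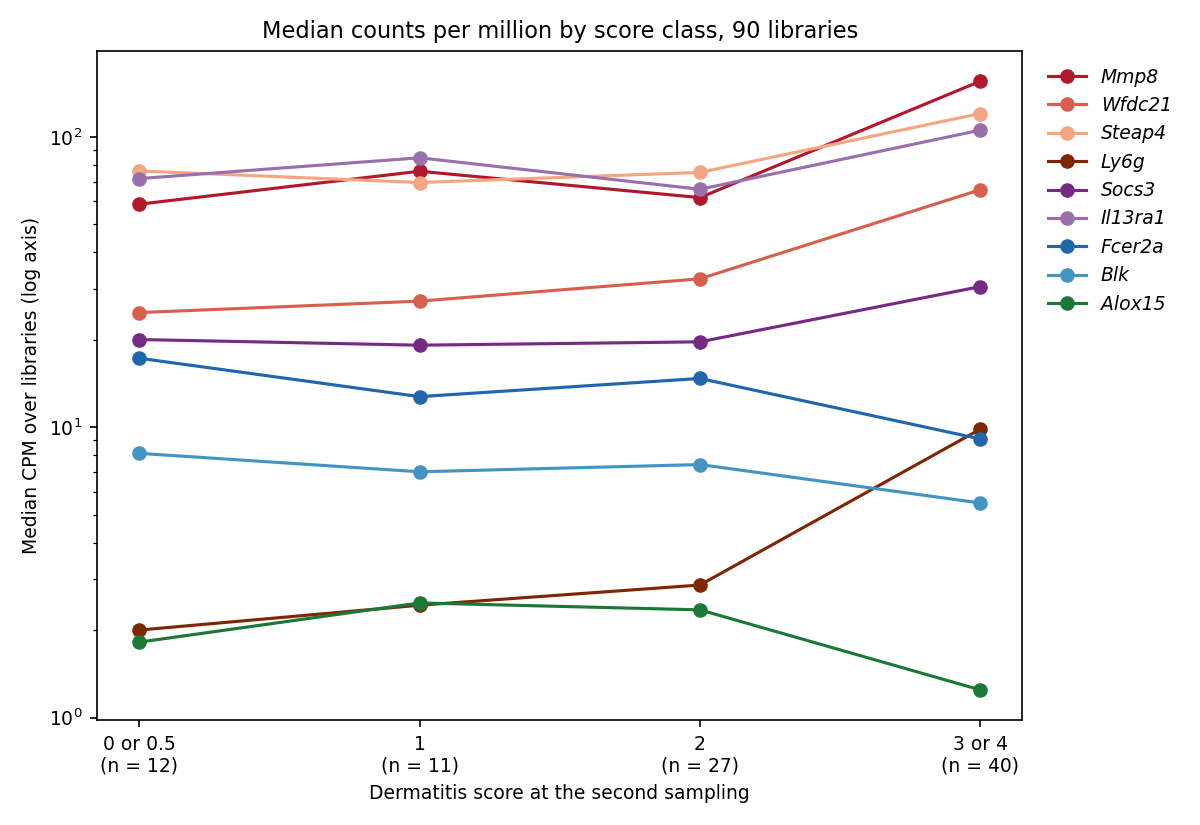
Median CPM on a log axis over the second-sampling libraries of each score class for 9 genes. Mmp8, Wfdc21, Steap4, Ly6g, Socs3 and Il13ra1 lie highest at score 3 or 4; Fcer2a, Blk and Alox15 lie lowest there.

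The single library of score 4, number 5 of cohort 3, lay above the median of its class for 62 of the 66 named genes called higher and among the 5 highest of 40 for 21 of them. For Saa3 it had 8.95 CPM and ranked 2 of 40, and for Mmp8 it had 370 CPM and ranked 3 of 40. Of the named falls Fcer2a was 4.87 CPM in it and ranked 34 of 40 from the highest. With 1 mouse no difference between scores 4 and 3 was tested. The 66 genes were called in a comparison that included this library, and its place was not counted over all genes.

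Sampling day and cohort were nested, so a difference between days cannot be told apart from one between cohorts. In the 36 day 44 libraries alone 688 genes were called higher and 62 lower. In the 31 day 40 libraries alone edgeR called 0 genes and 2602 had an unadjusted p below 0.05. Mmp8 differed by 1.71 in the day 44 cohorts (adjusted p = 0.00135) and by 1.45 in the day 40 cohorts (adjusted p = 0.204). Fcer2a differed by -0.73 on day 44 (adjusted p = 0.0725) and by -0.66 on day 40 (adjusted p = 0.197). Socs3 differed by 1.22 on day 44 (adjusted p = 0.00073) and by 0.63 on day 40 (adjusted p = 0.250), and the difference between these, 0.56 ± 0.31, did not pass the test (adjusted p = 0.521). Over all genes edgeR called 0 for a difference between the days, where 1780 had an unadjusted p below 0.05, and DESeq2 called 5, all with a mean under 1 CPM. Cohorts 1 to 4 and 6 to 9 differ in the globin and mitochondrial rRNA shares of their libraries. In cohorts 1 to 4 alone 0.724% of genes were called higher and 1.25% lower. In cohorts 6 to 9 alone edgeR called 0 genes and 3100 had an unadjusted p below 0.05. Mmp8 differed by 1.47 in cohorts 6 to 9 (adjusted p = 0.124) and by 1.68 in cohorts 1 to 4 (adjusted p = 0.0431). Between these cohort sets edgeR called 0 genes for a difference of the effect, and 3525 had an unadjusted p below 0.05.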

How the data were processed

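Whole blood was taken from the tail vein, and stranded libraries were made from total RNA after depletion of ribosomal and globin RNA, per the labels' protocols. The authors deposited expected counts per gene, 2.86% of them not whole, and TPM values for 190 libraries and 55414 genes. The expected counts were made with DRAGEN on build GRCm39, per the submitters' processing notes, and so were the authors' TPM values; no version or annotation is stated in the sources used here. How DRAGEN divided reads among near-identical genes can change their values.

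The expected counts were rounded. Genes were kept with filterByExpr (minimum count 10, minimum total 15), scaled by TMM and tested with edgeR 4.0.16 in R 4.3.3 (robust quasi-likelihood, cohort as covariate, Benjamini-Hochberg adjustment, threshold 0.05). The procedure was tested on simulated data. limma 3.58.1 and DESeq2 1.42.0 served as alternatives. Fits that left out 1 library kept the trend of dispersion, the spread of counts, from the fit of all 67 libraries. The library left out therefore still entered that trend. Library shares were tested with 100000 permutations of score within cohort, two-sided. Figures used matplotlib 3.10.9. Named genes were the 10 largest rises and falls (mean of at least 1 CPM, same sign in at least 6 of 9 cohorts), up to 2 per list, the members called where a list had 5 or fewer, and leading genes of earlier comparisons; others are said to be chosen later. The 36 lists, with 606 entries, and the comparison itself were chosen with earlier results of these data known. The labels give each library a cohort and a number; p-values measure the spread between these libraries. No 2 libraries were identical (highest correlation 0.995). Some members counted in the lists are not reported here by name.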

Additional observations from a re-analysis of the deposited data

How the results depend on the processing

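Counts of calls are given here as percentages of the genes fitted, 4.61% higher and 1.49% lower in the comparison as reported. Genes called lower made up 2.63% by DESeq2, 3.48% with no cohort covariate, 0.337% in the day 44 cohorts alone, 0.933% without cohort 2, 0.586% without cohort 3, 0.830% without cohort 4, 0.981% without cohort 5, 0.716% without cohort 6 and 4.01% without cohort 9. Genes called higher made up 0.724% in cohorts 1 to 4 alone. In the day 40 cohorts alone and in cohorts 6 to 9 alone edgeR called 0% in either direction. By limma on log2(TPM + 1) 0.217% were higher and 0% lower, and 1051 of the 18443 genes fitted had an unadjusted p below 0.05. That scale understates differences of low genes, but F13a1 (251 CPM), Alox5ap (118.8 CPM), Pkm and Il13ra1 lost their calls too. The cause of the loss was not tested. With no filter on low counts 28875 genes were fitted, 815 higher (2.82%) and 212 lower (0.734%), among them 90.6% of the higher and 53.5% of the lower calls made with the filter. Leaving out 1 library at a time, an alternative chosen after seeing the data, gave 3.61% to 5.83% higher and 0.705% to 2.81% lower. The lower share moved by over 1.5 times without score 2 libraries number 2 of cohort 1 (0.727%), number 3 of cohort 3 (0.705%), number 9 of cohort 4 (0.895%) and number 10 of cohort 9 (2.48%), and without number 5 of cohort 8, of score 3 (2.81%).

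With the replicate number as a block, 3.82% of genes were called higher and 0.645% lower. The numbers are not shown to pair libraries: over same-numbered pairs across cohorts the deviations from class means correlated from -0.861 to 0.759 (median -0.007), and 35.2% of the pairs exceeded 0.1. For a difference between the days DESeq2 called 5 genes, Gm10259, Ttpa, Loxl1, Gm10273 and Ranbp3l, named after their values had been seen, all with a mean of at most 0.225 CPM. Among 24 named genes that were not called, some changed sign, and the cause was not tested: in cohorts 6 to 9 alone Ms4a2 (0.17), Tcf4 (0.031), Cd4 (0.043) and Ikzf2 (0.17); in the day 44 cohorts alone Ikzf2 (0.031); in the day 40 cohorts alone Fech (0.13), Alas2 (0.11) and Cenpe (0.019); in cohorts 1 to 4 alone Fech (0.30), Alas2 (0.31), Cenpe (0.042), Col3a1 (-0.21) and Dcn (-0.022); without cohort 9 Fech (0.087) and Alas2 (0.10); with no cohort covariate Alas2 (0.091); and by limma Aurkb (0.0045). In cohorts 1 to 4 alone the mitochondrial rRNA share differed by -0.669 percentage points (p = 0.524) and the total count by -1933760 (p = 0.463). Of the 87 named genes that were called, 0 changed sign in any setting and 65 stayed called whichever library was left out. Hif1a, Il1b and many list members given by name only are not among the 87. Of the 87, the call was lost by 87 in the day 40 cohorts alone and 87 in cohorts 6 to 9 alone. It was lost by 64 by limma, 59 in cohorts 1 to 4 alone, 28 in the day 44 cohorts alone and 20 with the replicate block. With 1 cohort left out it was lost by 4 (without cohort 8) to 19 (without cohort 6). With no cohort covariate 9 lost it, with no filter 6, with all 90 libraries 3, and with the globin and mitochondrial rRNA shares as covariates 2. With RLE size factors 0 lost it, and by DESeq2 0 of those given an adjusted p there. DESeq2 gave none for Csta2, Ms4a3 and Flg, so their signs and calls were not compared there.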
